A study of Caenorhabditis elegans with 2 samples.

Results

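Genes named ceh, for *C. elegans* homeobox, encode transcription factors that bind DNA through a homeodomain, a compact helical fold found across animals. Every protein-coding gene whose symbol starts with ceh- in the Ensembl annotation of the WBcel235 assembly was taken, which gave 63 of 19985 protein-coding genes. For each gene the region of highest ChIP signal was sought in its promoter, from 1000 bp upstream to 200 bp downstream of any annotated 5' end, and separately inside its gene body. Homeodomain proteins set cell identity in the worm embryo and later specify neuron types, muscle and pharynx. The gene family includes Hox genes for position along the body, TALE cofactors that bind DNA beside Hox proteins, and the POU, LIM, *sine oculis*, CUT and paired-like classes. Homeobox genes elsewhere in animals are often controlled by elements scattered over long flanking sequence.

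The factor measured was ETS-7, a member of the ETS family, whose DNA-binding domain recognises sequences around a GGAA core. Worms of strain OP487 are a transgenic line that stably carries ETS-7 with a GFP-FLAG tag at its C terminus, and chromatin was immunoprecipitated with an antibody against GFP. Whole hermaphrodite early embryos were collected 3 hours after synchronization by bleaching, as 1 group of 2 biological replicates numbered 3 and 4, so every value is an average over all cells of the embryo and over any mix of stages in the collection. The promoter that drives the tagged protein and the presence of the native *ets-7* gene were not stated in the labels, and no untagged or mutant group was analysed here.

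The authors deposited regions for replicate 3 (16227), replicate 4 (15533), the pooled replicates (11626, at a relaxed threshold that admits background) and a short optimal list, 5.12% of the pooled regions, that passed their reproducibility analysis. The signal quoted throughout is the authors' own value per region, and it serves only to describe and rank regions within a list. It ran from 27.5 to 941 with a median of 34.9 in the pooled list, and the lowest signal in the optimal list was 80.7. The files hold no read counts, so depth is unknown and the spread between the 2 replicates is the only error. With a single group there is no contrast to test, so all comparisons with other genes are counts and medians without a p-value.

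None of the 63 ceh genes had a region of the optimal list in its promoter, where 2.07% of all protein-coding genes (414) had such a region. None had an optimal region in its gene body either, against 1.04% of all genes, or in promoter and body combined, against 2.79%. The 37 other homeobox genes, a list of family members named for mutant phenotypes or for their class (such as *unc-62*, *lim-7* and *vab-3*), likewise held no optimal region in promoter or body. With shares this low over all genes, 63 genes would hold few such regions at the background rate, so the absence is a description of these genes and sets them apart from no other group.

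In the pooled list and with these windows, ceh genes stood near the background for a promoter region, a body region and either kind. A promoter region was present at 16 of 63 ceh genes (25.4%), 16 of 37 other homeobox genes (43.2%) and 21.6% of all protein-coding genes. A gene body region was present at 16 ceh genes (25.4%), 22 other homeobox genes (59.5%) and 21.9% of all genes. Either kind was found at 22 ceh genes (34.9%), 26 other homeobox genes (70.3%) and 34% of all genes. Of the 22 ceh genes, 10 had both kinds, 6 had a promoter region alone and 6 a body region alone. The matching shares over all genes were not taken, so these counts describe the 22 genes only and are not set against the background.

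**Figure D1:**
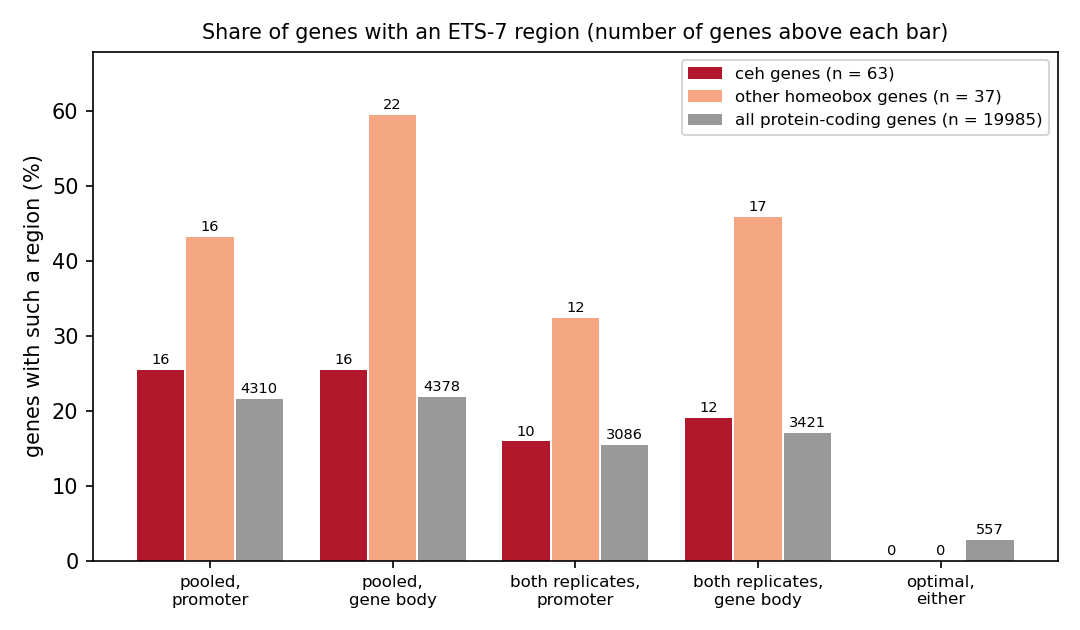
Share of genes with an ETS-7 region (vertical axis, percent), for 63 ceh genes, 37 other homeobox genes and 19985 protein-coding genes, by list and window. Numbers above bars are counts of genes. The ceh bars lie near those for all genes, and the bars of the other homeobox genes are higher in each of the pooled and both-replicate comparisons.

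The other homeobox genes, with their higher shares, were also longer and had more 5' ends. Median gene length was 2652 bp for ceh genes, 4889 bp for other homeobox genes and 2026 bp for all genes. Ceh genes had 1.52 annotated 5' ends on average, other homeobox genes 2.65 and all genes 1.49. Among genes with 1 annotated 5' end, a pooled promoter region was found at 10 of 48 ceh genes (20.8%), 4 of 17 other homeobox genes (23.5%) and 17.5% of all genes. With 2 or more 5' ends the shares were 40% of 15 ceh genes, 60% of 20 other homeobox genes and 32.5% of all genes. Among genes up to 2000 bp long, a body region was found at 3 of 24 ceh genes (12.5%), 0 of 2 other homeobox genes and 10.4% of all genes. For longer genes of up to 5000 bp the shares were 30% of 30 ceh genes, 38.9% of 18 other homeobox genes and 23.2% of all genes. Among genes longer than 5000 bp, a body region was found at 4 of 9 ceh genes (44.4%), 15 of 17 other homeobox genes (88.2%) and 54.4% of all genes. Within these splits the other homeobox genes still stood above all genes, except among genes up to 2000 bp, where the list had only 2. Whether length or 5' ends account for the higher shares was not tested. These splits by length and 5' ends were chosen after the shares were seen.

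The highest promoter signal among ceh genes belonged to *ceh-20*, whose product is the worm relative of Pbx and Extradenticle, a TALE partner of Hox proteins. Its region at chrIII:6978698-6979177 (ce11) had a signal of 45.7 in replicate 3, 29.6 in replicate 4 (mean 37.7 ± 11.4, SD, n = 2) and 75.7 in the pooled list, with the summit 946 bp upstream of the 5' end. That was 5.03 units short of the lowest optimal region and ranked 683 in the pooled list. Among the 4310 genes with a pooled promoter region, 10.9% had a higher signal. Replicate 3 was the higher of the 2 replicates, and there the region ranked 495, inside as many leading regions as the optimal list holds, which made *ceh-20* 1 of 63 ceh genes (1.59%) against 2% of all genes. In replicate 4 it ranked 1497, and no ceh promoter was within that number of leading regions, against 2.05% of all genes. A second, overlapping pooled region at *ceh-20* had a signal of 49.5 and a summit 701 bp upstream.

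Next came *ceh-13*, the anterior Hox gene of the worm and the relative of *labial* and Hox1. Its region at chrIII:7554679-7555158 had a signal of 30.2 in replicate 3, 39.9 in replicate 4 (mean 35.1 ± 6.88) and 70.0 in the pooled list, 741 bp upstream of the 5' end. Here replicate 4 was higher, the reverse of *ceh-20*, and 13% of genes with a pooled promoter region had a higher signal. The fourth highest promoter was that of *ceh-74*, with 30.5 in replicate 3, 20.98 in replicate 4 (mean 25.7 ± 6.72) and 55.2 in the pooled list at chrV:14177636-14178115, 203 bp upstream of its 5' end and inside an intron of *cest-2.3*. The 121 bp around these 3 summits are shown because they are the strongest ceh promoter regions that lie away from small RNA genes. They are read on the forward strand of WBcel235 at chrIII:6978878-6978998, chrIII:7554859-7554979 and chrV:14177816-14177936, with GGAA, or TTCC where the core lies on the reverse strand, in capitals.
ceh-20: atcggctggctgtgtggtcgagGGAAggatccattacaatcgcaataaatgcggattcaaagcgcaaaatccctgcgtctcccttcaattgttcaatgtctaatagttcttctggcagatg
ceh-13: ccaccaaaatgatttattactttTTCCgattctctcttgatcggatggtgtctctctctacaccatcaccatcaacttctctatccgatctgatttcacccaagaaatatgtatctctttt
ceh-74: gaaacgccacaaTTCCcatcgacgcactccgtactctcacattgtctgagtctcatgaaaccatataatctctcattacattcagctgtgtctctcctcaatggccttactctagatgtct
Each window holds a single GGAA core, and none holds the longer hexamer CCGGAA within 100 bp of the summit.

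Between *ceh-13* and *ceh-74* in the order stood *ceh-2*, a relative of the *empty spiracles* genes, with 29.9 in replicate 3, 22.9 in replicate 4 (mean 26.4 ± 4.90) and 57.3 in the pooled list. Its summit, 771 bp upstream of the 5' end, fell inside a tRNA gene. Only 1 other ceh region, in the promoter of *ceh-43*, had a gene for a small structural RNA, microRNA or ribosomal RNA within 500 bp of its summit (211 bp, a tRNA gene), so 2 of 41 distinct ceh regions did, against 5.87% of all pooled regions. *ceh-37*, an orthodenticle relative of the paired-like class that acts in sensory neurons, followed with 29.5 in replicate 3, 15.3 in replicate 4 (mean 22.4 ± 10.1) and 43.4 in the pooled list. That region lies in an intron, 547 bp upstream of the start of a shorter transcript, so it counted as promoter and body at once. The ratio between its replicates was the largest among the 9 ceh promoters with a pooled region and a value in each replicate.

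**Figure D2:**
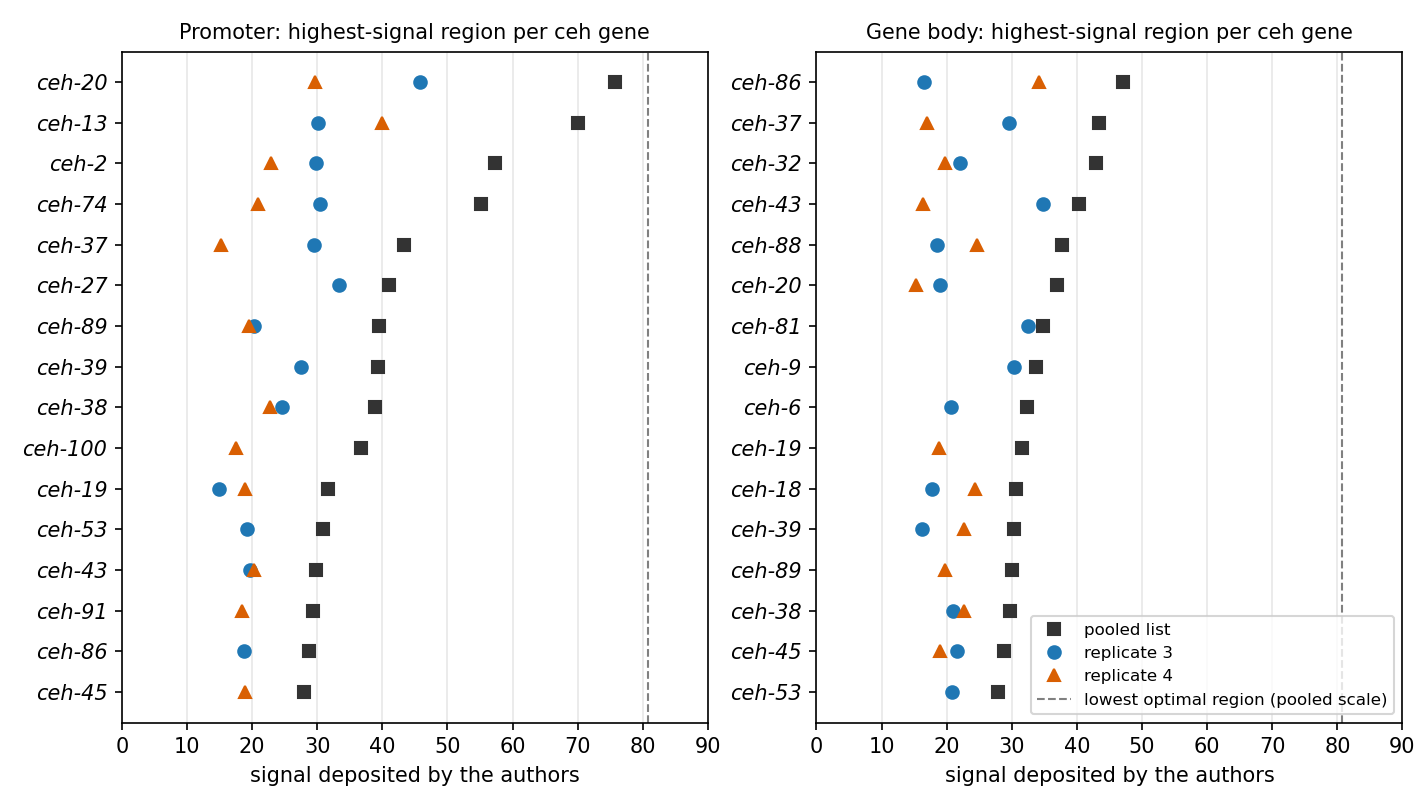
Signal of the highest region in the promoter (left) and gene body (right) of each ceh gene with a pooled region there, in signal units, for the pooled list, replicate 3 and replicate 4. No pooled value reaches the dashed line at 80.7, the lowest optimal signal; the highest are 75.7 (*ceh-20*, promoter) and 47.1 (*ceh-86*, body). A missing symbol means that the replicate's list has no region in that window.

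The other 11 ceh promoters had pooled signals from 28.0 to 40.98. *ceh-27*, an NK-2 class gene, had 33.3 in replicate 3, no region in replicate 4 and 40.98 in the pooled list, with the summit 15 bp upstream of the 5' end. The ONECUT genes *ceh-38* and *ceh-39*, of which *ceh-39* is an X-linked signal in sex determination, also had summits close to the start, at 14 and 68 bp upstream. *ceh-38* had 24.6 in replicate 3, 22.7 in replicate 4 and 38.8 in the pooled list, in a promoter shared with *malt-1*. *ceh-39* had 27.5 in replicate 3, no region in replicate 4 and 39.3 in the pooled list. Both replicates listed the promoters of *ceh-38*, *ceh-89*, *ceh-19* and *ceh-43* in this group, and the other 7 promoters had a region in a single replicate. *ceh-89* had 20.3 in replicate 3, 19.5 in replicate 4 and 39.5 in the pooled list. *ceh-100*, with 17.6 in replicate 4, none in replicate 3 and 36.8 pooled, had its summit 658 bp upstream, but the start of *lips-15* was nearer, at 48 bp. *ceh-19* had 14.9 in replicate 3, 18.9 in replicate 4 and 31.6 in the pooled list. *ceh-53* had 19.3 in replicate 3, no region in replicate 4 and 30.9 in the pooled list. Each replicate value is that of the highest region in the same window, which at *ceh-19* did not overlap the pooled region in replicate 3.

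Over the 16 ceh promoters the median pooled signal was 39.1, against 36.9 for the 16 other homeobox promoters and 38.1 for all 4310. The ceh promoters were thus spread along the whole range of relaxed regions below the optimal list and did not collect at either end. Among the 1000 pooled regions of highest signal, 2 ceh genes (3.17%) had a promoter region, against 3.29% of all genes.

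**Figure D3:**
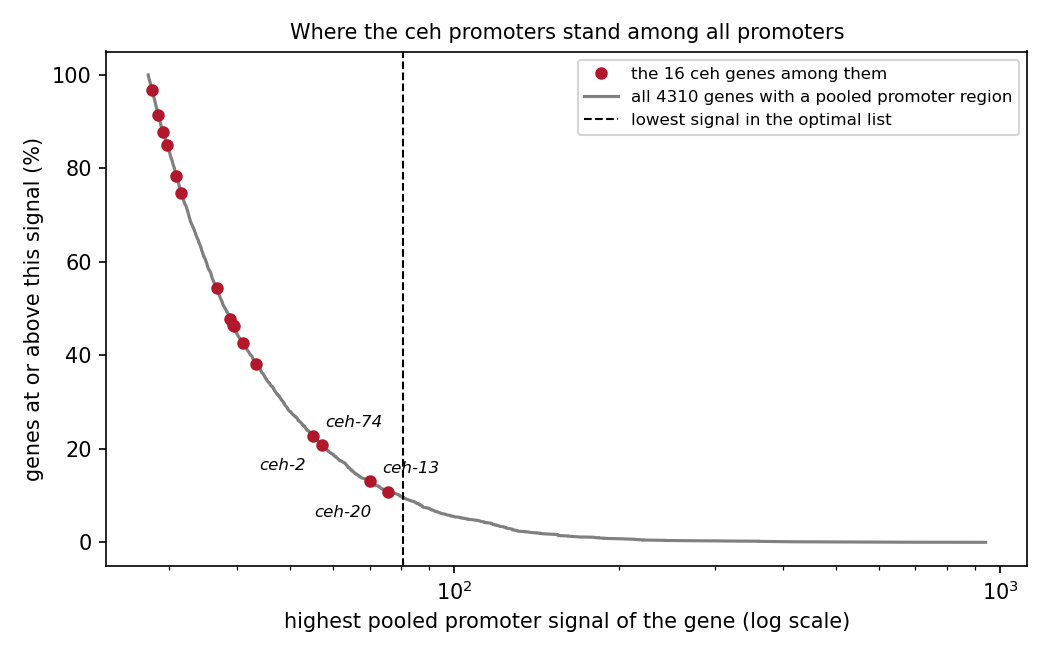
Share of genes at or above each promoter signal (vertical axis, percent) against the highest pooled promoter signal of the gene (horizontal axis, log scale), with the 16 ceh genes as red points on the curve of all 4310 genes. All ceh points lie left of the dashed line at 80.7; *ceh-20* is closest, with 10.9% of genes higher.

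Gene body signals were lower than the leading promoter signals. The highest was 47.1 at *ceh-86*, in a coding exon at chrII:2427403-2427882, with 16.5 in replicate 3 and 34.2 in replicate 4. *ceh-37* followed with the intronic region already described. *ceh-32*, a gene of the *sine oculis* class, had 22.1 in replicate 3, 19.7 in replicate 4 and 42.9 in the pooled list, in an intron at chrV:11703333-11703812. *ceh-43*, the worm Distal-less gene that acts in the anterior epidermis and in neurons, had 34.7 in replicate 3, 16.4 in replicate 4 and 40.4 in the pooled list, in an intron at chrIII:4448233-4448712. The replicates were close at *ceh-32* and far apart, in opposite directions, at *ceh-86* and *ceh-43*.

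The other named bodies had pooled signals of 37.7 at *ceh-88*, 36.9 at *ceh-20*, 34.8 at *ceh-81*, 33.8 at *ceh-9*, 32.4 at *ceh-6*, 31.6 at *ceh-19*, 30.7 at *ceh-18* and 30.4 at *ceh-39*. *ceh-6* and *ceh-18* are POU genes, and *ceh-18* is known for its role in the gonadal sheath and in oocyte maturation. *ceh-81*, *ceh-9* and *ceh-6* had a body region in replicate 3 alone, at 32.5, 30.3 and 20.6. *ceh-19* had one in replicate 4 alone, at 18.9. At *ceh-18* both replicates had a body region, but the pooled region overlapped one of replicate 4 alone. That overlapping region had a signal of 13.1, near the lowest of the replicate 4 list (12.9). The body regions of *ceh-20* and *ceh-39* also lay in the promoters of F31E3.6 and T26C11.9. The median over 16 ceh bodies was 33.1, against 37.5 for 22 other homeobox bodies and 35.1 for all genes with a body region. The highest body signals of the other homeobox genes were 62.05 at *unc-62*, the worm Meis gene, 58.9 at *lim-7* and 58.6 at *unc-30*.

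By class, the single Hox gene of the list (*ceh-13*) had a promoter region, against 21.6% of all genes. So did 1 of 3 TALE genes, 2 of 6 CUT genes, 2 of 6 paired-like genes and 4 of 15 NK-like and related genes. With so few genes per class, these counts describe single genes only. Both POU genes and 1 of 3 genes of the *sine oculis* class had a body region and no promoter region, where 21.9% of all genes had a body region. The POU gene *ceh-18* is 14431 bp long, and 54.4% of all genes longer than 5000 bp had a body region. The 1 LIM gene, *ceh-14*, had neither in the pooled list. Of 26 ceh genes left without a class, 6 had a promoter region and 8 had a region of either kind. A region of either kind was found at 14 of the 37 genes with a class and at 34% of all genes. The genes were spread over the chromosomes unevenly, with 18 of 63 ceh genes on X (28.6%), 11 of 37 other homeobox genes (29.7%) and 13.7% of all genes. Of the 18 ceh genes on X, 3 had a pooled promoter region, and 23.4% of all X genes had one.

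Agreement between the replicates was partial. Replicate 3 had a promoter region at 18 ceh genes (28.6%), 17 other homeobox genes (45.9%) and 26.4% of all genes. Replicate 4 had one at 22 ceh genes (34.9%), 21 other homeobox genes (56.8%) and 26.3% of all genes. Both replicates had one at 10 ceh genes (15.9%), 12 other homeobox genes (32.4%) and 15.4% of all genes. In the gene body, replicate 3 covered 27 ceh genes (42.9%) and replicate 4 covered 19 (30.2%), against 30.5% and 28.3% of all genes. Both covered the body of 12 ceh genes (19%), against 17.1% of all genes. No ceh body was among that number of leading regions of either replicate, where 1.06% of all genes stood in replicate 3 and 1.01% in replicate 4.

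A region in a promoter or body was found in a replicate list but not in the pooled list at 20 ceh genes (31.7%), 6 other homeobox genes (16.2%) and 23% of all genes. No list held one at 21 ceh genes (33.3%), 5 other homeobox genes (13.5%) and 43% of all genes. The 21 ceh genes were *ceh-22*, an Nkx2-5 relative of the pharynx, *ceh-36*, an orthodenticle relative, and *ceh-1*, *ceh-7*, *ceh-8*, *ceh-12*, *ceh-17*, *ceh-23*, *ceh-28*, *ceh-33*, *ceh-48*, *ceh-49*, *ceh-54*, *ceh-60*, *ceh-62*, *ceh-75*, *ceh-76*, *ceh-82*, *ceh-84*, *ceh-90* and *ceh-99*. Among the 9 ceh promoters with a pooled region and a value in each replicate, the log2 ratio of replicate 3 over replicate 4 ran from −0.40 (*ceh-13*) to 0.95 (*ceh-37*) with a median of 0.12 and an SD of 0.45. Over 2823 genes with such values the median was 0.10 and the SD 0.50. The order of the leading promoters was therefore not fixed by the data, since *ceh-13* was highest in replicate 4 and *ceh-20* in replicate 3.

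**Figure D4:**
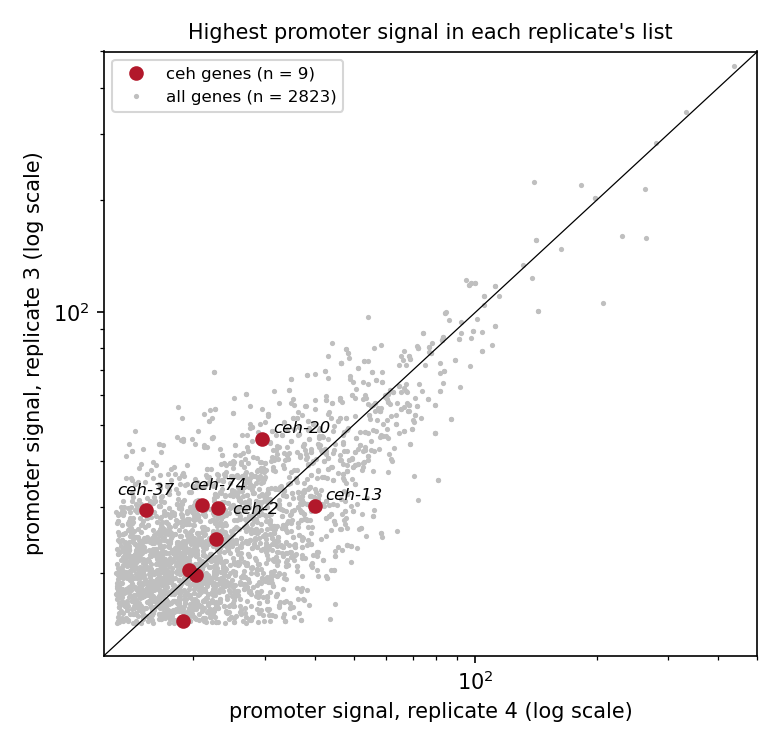
Highest promoter signal in replicate 3 (vertical axis) against replicate 4 (horizontal axis), both log scales, for the 9 ceh genes (red) and all 2823 genes (grey) with a pooled promoter region and a value in each replicate. The line marks equal signal; 6 ceh genes lie above it and 3 below, with *ceh-37* and *ceh-20* farthest above and *ceh-13* farthest below.

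The 16 promoters and 16 bodies held 41 distinct pooled regions, which form 35 loci once overlapping regions are merged. Relative to their own gene, 14 summits lay upstream, 15 in introns, 9 in coding exons, 1 in a 5' UTR and 2 in 3' UTRs. A replicate region overlapped from both replicates at 21 of the 41 (51.2%), against 58.2% of all pooled regions, while 13 overlapped replicate 3 alone and 7 replicate 4 alone. With the pooled list cut into 4 equal parts by signal, from highest to lowest, the 41 regions numbered 6, 13, 8 and 14. By the authors' −log10 q, where a low value means weak evidence for a region, most were weak. The value was 1.90 at the *ceh-13* promoter and 1.81 at the *ceh-20* promoter. It was 0.47 at the *ceh-37* promoter, 0.27 at that of *ceh-38* and 0.05 at that of *ceh-43*. The nearest protein-coding 5' end was that of the ceh gene itself for 36 regions. This count and the places above follow in part from choosing regions in ceh promoters and bodies, and the shares over all genes were not taken.

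The hexamer CCGGAA, a common form of the ETS site, was searched on both strands within 100 bp of each summit. It was found at 4 of 41 ceh regions (9.76%, exact Clopper-Pearson 95% interval 2.72% to 23.1%), against 14.1% of all 11626 pooled regions and 15.6% of optimal regions. Among promoter regions alone it was found at 1 of 19 (5.26%), against 11.3% of all pooled promoter regions. The shorter CGGAA, which is contained in CCGGAA, was found at 34.1% of ceh regions and 38.5% of all pooled regions. The interval treats the 41 regions as independent, although overlapping regions share sequence, and it serves as a description. The following 36 bp windows hold 3 of these matches, which lie within 10 bp of a summit, with the hexamer in capitals (TTCCGG where it lies on the reverse strand). The first is in a coding exon (chrIV:17329609-17329644), the second upstream of the gene (chrII:12604317-12604352) and the third in an intron (chrIII:4448134-4448169).
ceh-88: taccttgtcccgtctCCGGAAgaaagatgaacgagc
ceh-100: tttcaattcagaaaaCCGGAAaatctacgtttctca
ceh-43: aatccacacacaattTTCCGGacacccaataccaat
These 3 regions had pooled signals of 37.7, 36.8 and 28.5. Among the 41 promoter and body regions, those with a hexamer at the summit were thus not those of highest signal.

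Regions farther from the genes were examined after the values above had been seen. When each pooled region was given to the nearest protein-coding 5' end at any distance, 33 of 63 ceh genes (52.4%) received a region, against 35.3% of all genes. Ceh genes also have more sequence around them, since the stretch nearest to a gene's 5' ends had a median of 5131 bp for ceh genes, 10090 bp for other homeobox genes and 3772 bp for all genes. Per 10 kb of such sequence there were 1.69 pooled regions at ceh genes, 2.01 at other homeobox genes and 1.16 at all genes. Beyond promoters and bodies of ceh genes, 30 pooled regions in 26 merged loci were nearest to 20 ceh genes, of which 12 had no pooled region in promoter or body. Of these 30 regions, 24 lay upstream and 28 lay in no gene, positions that follow in part from setting ceh promoters and bodies aside. Of the 30, 19 overlapped a region of both replicates, against 58.2% of all pooled regions. None of the 30 had a small RNA gene within 500 bp, against 5.87% of all pooled regions. Their median signal was 37.3, against 35.4 over the 2591 pooled regions outside all promoters and genes, which include 28 of the 30.

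A single ceh gene, *ceh-43*, was the nearest gene to an optimal region (1.59% of ceh genes, against 2.76% of all genes). The region at chrIII:4453706-4454185 lies 4003 bp upstream of *ceh-43* and in no gene. It had a signal of 39.3 in replicate 3, 53.3 in replicate 4 (mean 46.3 ± 9.90, SD, n = 2) and 93.4 in the pooled list, the highest at any ceh gene, and an overlapping pooled region had 64.2. Next was a region at chrX:14209091-14209570, 1331 bp upstream of *ceh-37*, with 34.9 in replicate 3, 36.6 in replicate 4 (mean 35.8 ± 1.20) and 70.3 in the pooled list. Its replicates were closer than those of any of the 4 leading ceh promoters, and its signal was close to that of the *ceh-13* promoter. The 121 bp around both summits (chrIII:4453886-4454006 and chrX:14209271-14209391) show GGAA or TTCC in capitals.
ceh-43: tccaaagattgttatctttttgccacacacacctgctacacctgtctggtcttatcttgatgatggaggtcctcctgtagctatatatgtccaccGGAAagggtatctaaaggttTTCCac
ceh-37: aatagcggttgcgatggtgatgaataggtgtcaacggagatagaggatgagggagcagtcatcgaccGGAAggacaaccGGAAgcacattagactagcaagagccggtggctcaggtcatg
The *ceh-43* window holds CCGGAA once, 35 bp from the summit, and the *ceh-37* window holds it at 7 and 19 bp from the summit.

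**Figure D5:**
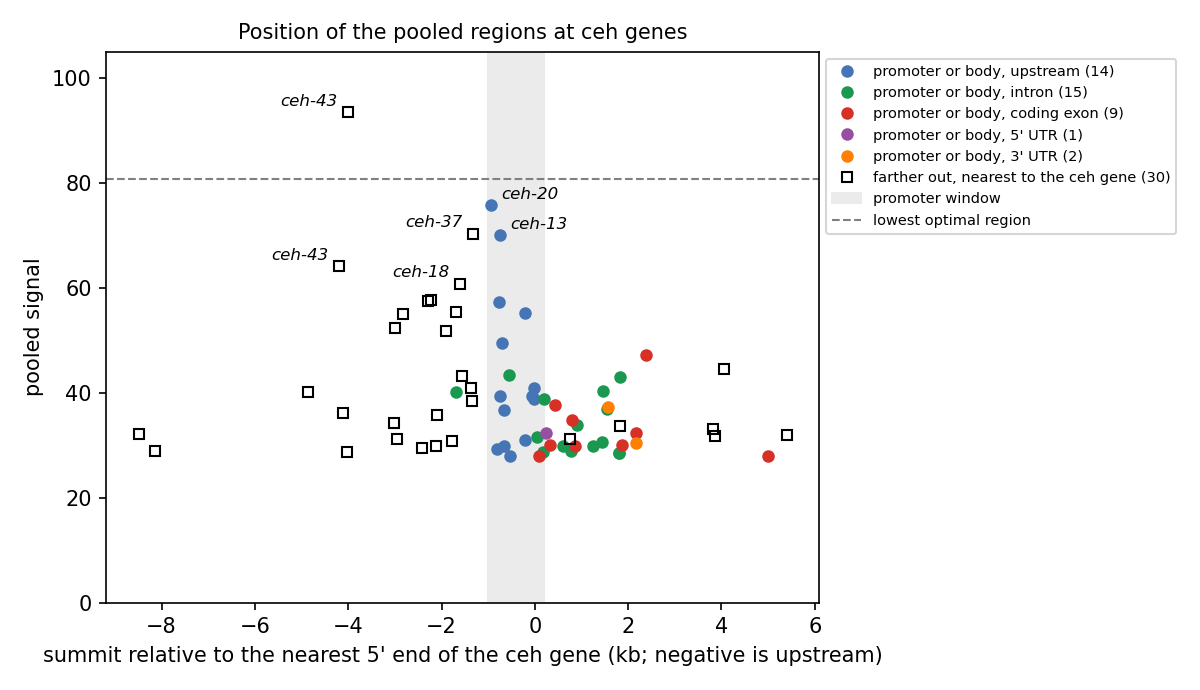
Pooled signal (vertical axis) against the distance of the summit from the nearest 5' end of the ceh gene (horizontal axis, kb), for the 41 regions in promoters or bodies (filled, by place) and the 30 regions farther out (open squares). The region 4003 bp upstream of *ceh-43* is the only point above the dashed line at 80.7, and the signals above 50 all lie upstream of a 5' end.

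The other distant regions with a signal of at least 50 lay upstream of 7 genes. At *ceh-18* the region 1597 bp upstream had 30.4 in replicate 3, 28.1 in replicate 4 and 60.8 in the pooled list. At *ceh-48*, a ONECUT gene, the values 2226 bp upstream were 31.98, 23.9 and 57.7 in the same order. At *ceh-13* a region 2289 bp upstream had 38.1, 22.8 and 57.5, in addition to the one in its promoter. *ceh-30*, a BarH-type gene, had 55.4 in the pooled list at 1692 bp, *ceh-24*, an NK-2 class gene, had 54.9 at 2816 bp, *ceh-32* had 52.2 at 2999 bp and *ceh-14*, a relative of Lhx3, had 51.7 at 1899 bp. All 10 distant regions at or above 50 overlapped a region of both replicates. Regions chosen for a high pooled signal are likely to do so, and the share over all regions at that signal was not taken. The overlapping *ceh-43* regions also share the same replicate regions. *ceh-48* had no region in its promoter or body in any list.

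CCGGAA lay within 100 bp of the summit at 10 of the 30 distant ceh regions (33.3%), which belong to 8 genes. The share was 14.6% of the 2591 pooled regions outside all promoters and genes, a set that includes 28 of the 30. The *ceh-10* region, which holds the hexamer, lies in a coding exon of *polq-1* and is not in that set. At a signal of at least 50, CCGGAA was found at 7 of 10 distant ceh regions (70%). It was found at 93 of the 484 regions outside all promoters and genes (19.2%), a set that includes these 10. These shares were noticed in the data, carry no test, and count overlapping regions separately; merged, 9 of 26 distant loci hold the hexamer. The windows below show it upstream of *ceh-13* (chrIII:7553276-7553311), *ceh-30* (chrX:3061915-3061950), *ceh-24* (chrV:13810391-13810426) and *ceh-32* (chrV:11708426-11708461), with CCGGAA, or TTCCGG on the reverse strand, in capitals.
ceh-13: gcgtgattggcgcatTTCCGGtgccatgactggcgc
ceh-30: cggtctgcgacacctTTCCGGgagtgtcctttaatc
ceh-24: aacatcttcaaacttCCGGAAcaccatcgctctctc
ceh-32: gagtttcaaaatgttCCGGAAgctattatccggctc
At *ceh-24* and *ceh-32* the match is part of a palindrome, so it is read on both strands, and the *ceh-32* region holds a further match.

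Distances from ceh genes to the nearest optimal region were also taken. No optimal region lay within 2000 bp of a ceh gene, a distance at which the share of all genes was not taken. Within 5000 bp, 2 ceh genes had an optimal region (3.17%, against 7.72% of 19973 nuclear genes). These were *ceh-43*, as above, and *ceh-39*, where a region 2663 bp upstream had a signal of 159 but lay with its summit inside a tRNA gene and nearer to T26C11.8. Within 10000 bp 4 ceh genes had an optimal region (6.35%, against 12.4%). The median distance from a gene to the nearest optimal region was 55494 bp for ceh genes and 68143 bp for nuclear genes. By the median, ceh genes thus lay nearer to an optimal region, while their shares within 5000 and 10000 bp were lower.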

How the data were processed

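Per the files' descriptions, regions were called by the authors on each replicate and on pooled alignments against a control, at a relaxed threshold, and the optimal list came from irreproducible discovery rate analysis. The sources used here give no aligner, peak caller or scaling of the signal. The signal per region is the value deposited by the authors and was used to rank regions. The deposited −log10 q-values ran from 1.83 to 1.99 in the optimal list. A further 233 pooled regions were at or above 1.83, so q alone did not set the list. These include the *ceh-13* promoter region (1.90) and the region 1331 bp upstream of *ceh-37* (1.89). Of the 41 ceh regions in promoters or bodies, only 1 reached 1.83, and the lowest value was 0.02. Coordinates are 1-based on ce11, the assembly of the WBcel235 sequence and Ensembl release 115 annotation used. The ce10 lists were not used here.

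A region was assigned by its summit, to promoters of any transcript of a gene and to gene bodies. Members, lists, windows and alternatives were chosen with earlier results of these data known. Named genes are the 12 highest pooled promoters, the 12 highest bodies, any gene with a region in the optimal list or among as many leading regions of either replicate, and the 5 promoters of largest replicate disagreement; other homeobox genes and distant regions were named after their values were seen. Homeobox classes are textbook knowledge; *ceh-44* is not among the symbols of the annotation. P-values were not computed. Assignment was tested on simulated regions. Python 3.11.15, NumPy 2.4.6, SciPy 1.17.1 and matplotlib 3.10.9 were used.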

Additional observations from a re-analysis of the deposited data

How the results depend on the processing

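With the promoter from 500 bp upstream, 9 of 63 ceh genes had a pooled promoter region (16% of all genes). From 1000 bp it was 16 of 63 (21.6%), and from 2000 bp it was 25 of 63 (29.8%). The count rose with the window in ceh genes and in all genes, and more steeply in ceh genes. Their share lay below that of all genes at 500 bp and above it at 2000 bp, so the comparison depends on the window. With 5' ends limited to the outermost, region overlap in place of the summit, the nearest gene alone, or no regions near small RNA genes, the pooled promoter count was 14 to 20 (17.7% to 25.7% of all genes) and the body count 13 to 20 (18.1% to 28.6%). With a single replicate's list in place of the pooled list, the promoter count was 18 in replicate 3 (26.4% of all genes) and 22 in replicate 4 (26.3%). The body count was 27 (30.5%) and 19 (28.3%) in the same order. In place of the optimal list, as many leading regions of that replicate were taken, which did not have to be optimal regions. Among these, replicate 3 gave 1 ceh promoter, that of *ceh-20* (2% of all genes), and replicate 4 gave 0 (2.05%). In promoter or body the counts were 1, again *ceh-20*, and 0, against 2.74% of all genes in each replicate. The body count among them was 0 in both replicates (1.06% and 1.01% of all genes). Counting the nearest 5' end at any distance in addition to promoter and body, added after the data were seen, gave 1 ceh gene (*ceh-43*) an optimal region, against 3.5% of all genes. All other optimal counts stayed at 0. For the hexamer, the share was 9.76% within 50 bp (8.87% of all pooled regions), 22% within 200 bp (21.8%) and 34.1% with CGGAA (38.5%). The promoter from 2000 bp moved the signal of *ceh-37* to 70.3 and of *ceh-43* to 38.5; the promoter from 500 bp gave *ceh-37* 38.8, within 1 SD of its replicates; the other 22 of 25 promoter signals under both windows were identical, and 7 genes lost their region at 500 bp. No paired analysis was possible because the samples form 1 group. Depth is unknown and there are 2 replicates, so a gene without a region may lie below the relaxed threshold.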
